A study of Homo sapiens with 6 samples.

Results

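Transcripts of 10 target genes of the MLL fusion, HOXA5, HOXA7, HOXA9, HOXA10, MEIS1, PBX3, MEF2C, FLT3, MYB and CDK6, were compared between control and COX4I1-targeted Molm13 leukemia cells. The members were chosen by gene symbol, and all 10 were found among the 19845 gene symbols of the deposited count table. None of the 10 changed past the threshold in the main fit. A fit that paired the libraries by number called 3 of them, and 11.9% of all genes tested. Of them, 9 had a lower mean in sgCOX4I1 libraries and 1, CDK6, a higher mean, and the sgCOX4I1 means lay between 83.7% (PBX3) and 104% (CDK6) of the sgCtrl means. PBX3, FLT3 and HOXA5 were the 3 members for which every sgCOX4I1 library lay below every sgCtrl library, as was the case for 10.4% of all genes tested.

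Molm13 is a human acute myeloid leukemia line with a rearranged MLL gene. All 6 cultures stably expressed the Cas9 nuclease, carried a lentiviral guide RNA vector that also encodes a red fluorescent protein and a puromycin resistance gene, and were selected in puromycin at 1.0 µg per mL. The 3 sgCtrl cultures received control guides and the 3 sgCOX4I1 cultures received guides against COX4I1, a subunit of mitochondrial Complex IV. The numbers #1 to #3 name the cultures of each group, and the methods list 3 guide sequences per group, so the spread within a group includes differences between guides as well as cultures. Both groups are pools of edited cells of 1 line, and the time from transduction to RNA extraction was not given in the sources used here.

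In leukemia with a rearranged MLL gene, the amino-terminal part of MLL (KMT2A) is fused to a partner protein, in Molm13 cells to MLLT3, also called AF9. The fusion is brought to chromatin with menin and recruits the elongation machinery and the histone methyltransferase DOT1L, which keeps genes of early blood progenitors transcribed. Posterior HOXA genes and MEIS1 are the best known of these genes, and their products, together with PBX3, bind DNA as a complex that sustains self-renewal. MEF2C, FLT3, MYB and CDK6 carry further parts of the same program, as transcription factors, a growth factor receptor and a cell cycle kinase.

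Reads counted per library ranged from 17241014 to 30861943. COX4I1, the targeted gene, stood at 26.7%, 76.7% and 27% of the sgCtrl mean in sgCOX4I1 #1, #2 and #3, so the library sgCOX4I1 #2 kept most of the mRNA. Its log2 fold change was -1.21 ± 0.29, with an adjusted p of 0.0512. Here and in what follows, a log2 fold change stands with ± its standard error, and adjusted p-values are those of the quasi-likelihood test in edgeR after the Benjamini-Hochberg procedure. Of 6 myeloid markers, all were tested and 1, MPO, was called, where 2.08% of all genes tested were. The summed level of 11 markers of T, B, erythroid, epithelial and stromal cells stayed between 0.835 and 1.74 CPM in sgCtrl. In sgCOX4I1 it stayed between 0.863 and 1.25 CPM. Of these markers 4, CD3D, HBB and EPCAM among them, had 0 counts in all 6 libraries, and 1 was tested and not called. CPM are read counts scaled to the same total in every library, after TMM scaling, a correction for library composition. Because whole cultures were sequenced, a lower level cannot be told apart between fewer cells with the transcript and less transcript per cell.

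Across the 11861 genes tested, 247 (2.08%) passed an adjusted p of 0.05 in edgeR, and 24 (0.202%) also changed at least 2-fold, the criteria of the methods. No member passed either rule. At an unadjusted p under 0.05 there were 3 of 10 members, PBX3, FLT3 and HOXA9, where 17.3% of all genes tested had such a p. DESeq2 and limma-voom called 0 members as well, each with 3 at an unadjusted p under 0.05. An edgeR fit with the replicate number as a block called 3 members, PBX3, FLT3 and HOXA9, where it called 11.9% of all genes tested. The median log2 fold change of the members was -0.12, beside -0.002 over all genes tested, and 9 of 10 members were below 0, where 50.6% of all genes were. The members' median was -0.08 without sgCtrl #1, -0.19 without sgCOX4I1 #1 and -0.06 without sgCOX4I1 #3.

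**Figure D1:**
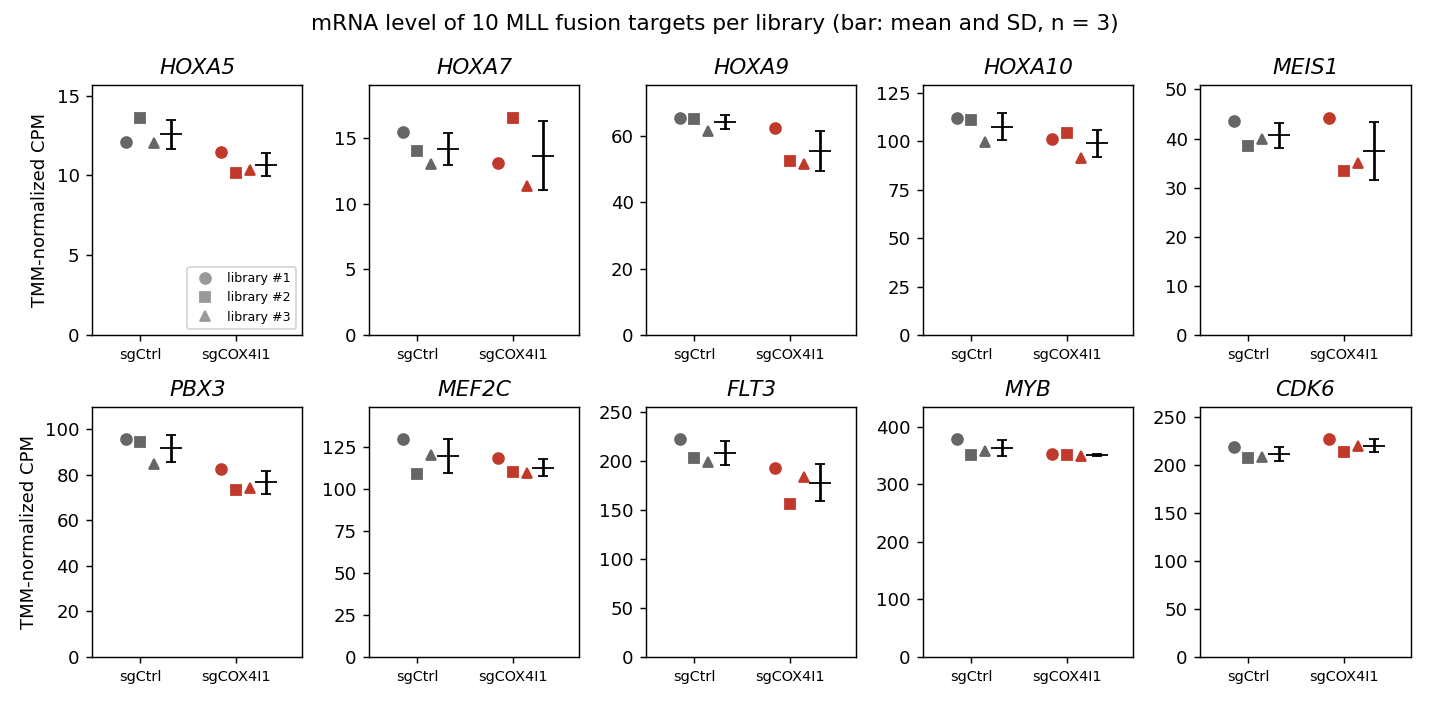
Each panel shows 1 gene, with the 3 sgCtrl libraries in grey and the 3 sgCOX4I1 libraries in red on a linear axis of TMM-normalized CPM that starts at 0, symbols for library numbers, and black bars for the mean and SD (n = 3). PBX3, FLT3 and HOXA5 show no overlap between groups, the other 7 genes do.

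The HOXA members encode homeodomain transcription factors that lie in 1 cluster on the minus strand of chromosome 7 in GRCh38, from 27141052, the lower end of HOXA5, to 27180261, the upper end of HOXA10. HOXA9, the member most closely tied to MLL leukemia, was at 65.5, 65.1 and 61.6 CPM in sgCtrl #1, #2 and #3 and at 62.5, 52.5 and 51.6 CPM in sgCOX4I1 #1, #2 and #3. Libraries sgCOX4I1 #2 and #3 lay below all controls, whereas sgCOX4I1 #1 lay among them. The means were 64.1 ± 2.13 and 55.5 ± 6.04 CPM (SD, n = 3 each), or a log2 difference of -0.21 ± 0.087 (edgeR adjusted p = 0.236). The table also lists a read-through gene, HOXA10-HOXA9, with 0 counts in all 6 libraries. Reads that this gene shares with HOXA9 or HOXA10 may have been left uncounted. Their part in the HOXA9 and HOXA10 levels was not tested.

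HOXA10, the neighbour of HOXA9 and the HOXA gene with the highest level per kilobase, was at 112, 111 and 99.6 CPM in sgCtrl #1, #2 and #3 and at 101, 104.5 and 91.4 CPM in sgCOX4I1 #1, #2 and #3. The groups overlapped, and the log2 fold change was -0.12 ± 0.081 (edgeR adjusted p = 0.478), or -0.06 without sgCOX4I1 #3. HOXA5, which carries the fewest counts of the members, was at 12.1, 13.6 and 12 CPM in sgCtrl and at 11.5, 10.2 and 10.4 CPM in sgCOX4I1. Every sgCOX4I1 library lay below every sgCtrl library, by a narrow margin. Its log2 fold change was -0.24 ± 0.13 (edgeR adjusted p = 0.357), and its lowest library held 175 counts, for which counting error alone is 7.56%.

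HOXA7 was the most variable member in sgCOX4I1, with a coefficient of variation of 19.4%. It was at 15.5, 14 and 13.1 CPM in sgCtrl and at 13.1, 16.6 and 11.4 CPM in sgCOX4I1. The highest and the lowest of the 6 values both belonged to sgCOX4I1 libraries, #2 and #3. Its log2 fold change of -0.06 ± 0.15 turned to 0.06 when sgCOX4I1 #3 was left out, so no direction could be given for it.

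The remaining HOXA genes were read in the same fit, to see the members in their cluster. All 11 HOXA genes were detected and tested, 10 had a log2 fold change below 0, and none was called. The lowest adjusted p belonged to HOXA3, at 15.8, 19.1 and 19.9 CPM in sgCtrl and at 12.3, 12.6 and 14 CPM in sgCOX4I1, with a log2 fold change of -0.49 ± 0.12 (edgeR adjusted p = 0.0569). HOXA3 passed the threshold with DESeq2 (adjusted p = 0.0203), without the count filter (0.0232) and without sgCtrl #1 (0.0145). HOXA13, at the other end of the cluster, had 71.4 ± 3.43 CPM in sgCtrl and 71.5 ± 6.77 CPM in sgCOX4I1 (SD, n = 3 each). The summed level of the 11 genes was 361, 353 and 331 CPM in the sgCtrl libraries, in order of their numbers, against 336, 314 and 300 CPM in the sgCOX4I1 libraries, so the groups overlapped for the cluster as a whole. HOXA9 made up between 18.1% and 18.6% of the HOXA counts in sgCtrl libraries and between 16.7% and 18.6% in sgCOX4I1 libraries.

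**Figure D2:**
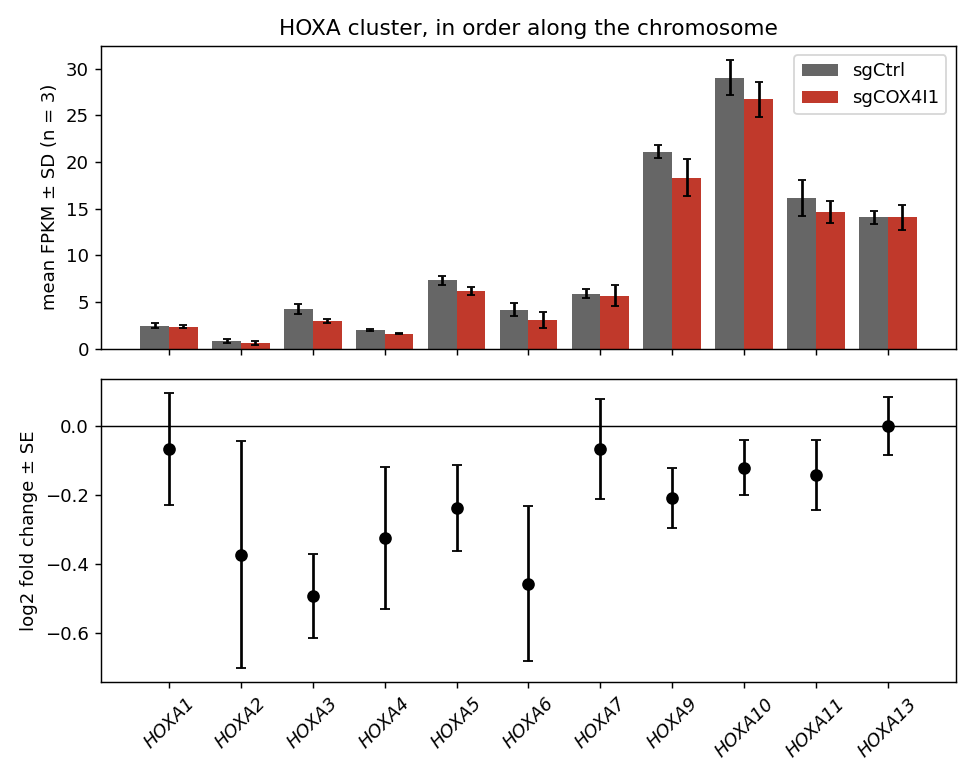
The upper panel gives the mean FPKM (CPM per kilobase of exon) with its SD (n = 3) of the 11 HOXA genes in order along chromosome 7, and the lower panel the log2 fold change with its standard error. HOXA10 has the highest level per kilobase, 29.0 FPKM in sgCtrl, and 10 of the 11 fold changes lie below 0.

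The HOXB and HOXD clusters were nearly silent in both groups, and the HOXC cluster stood at a low level. All 9 HOXD genes and 6 of the 10 HOXB genes had 0 counts in all 6 libraries, which allows a level of up to 0.096 to 0.174 CPM (3 counts) per library, from counting error only. The summed HOXB level lay between 0.737 and 1.74 CPM. Of the 9 HOXC genes, 3 had 0 counts throughout and 5 were tested. The summed HOXC level lay between 37.3 and 50.8 CPM over the 6 libraries. HOXC10 had the lowest p of the HOXB, HOXC and HOXD list, at 14.8 ± 2.38 CPM in sgCtrl and 9.87 ± 1.26 CPM in sgCOX4I1 (SD, n = 3 each), or a log2 difference of -0.59 with an adjusted p of 0.0588 from the edgeR test. HOXC4 followed, with a log2 fold change of -0.38 and an adjusted p of 0.140. None of the 6 tested genes of this list was called by edgeR with its filter, whereas HOXC10 passed with DESeq2 (adjusted p = 0.0151) and without the filter (0.0146).

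MEIS1 and PBX3 encode homeodomain proteins of the TALE class, which bind DNA together with HOX proteins. MEIS1, which spans 66433452 to 66573869 on chromosome 2 (GRCh38, plus strand), was at 43.5, 38.5 and 40.0 CPM in sgCtrl #1, #2 and #3 and at 44.3, 33.4 and 34.9 CPM in sgCOX4I1 #1, #2 and #3. The highest of the 6 values was that of sgCOX4I1 #1, and the lowest pair those of sgCOX4I1 #2 and #3. The log2 fold change was -0.12 ± 0.11 (edgeR adjusted p = 0.634), and it moved to -0.25 without sgCOX4I1 #1 and to -0.04 without sgCOX4I1 #2.

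PBX3, which spans 125747345 to 125967377 on chromosome 9 (plus strand), had the smallest p of the members. It was at 95.7, 94.6 and 84.9 CPM in sgCtrl #1, #2 and #3 and at 82.6, 73.6 and 74.1 CPM in sgCOX4I1 #1, #2 and #3. The groups did not overlap, although sgCOX4I1 #1 lay close to sgCtrl #3. The means were 91.7 ± 5.91 and 76.8 ± 5.07 CPM (SD, n = 3 each), and the log2 fold change was -0.26 ± 0.080 (edgeR unadjusted p = 0.00672 and adjusted p = 0.118), which ranks it 673rd of all genes tested by p. The 95% interval of its fold change ran from 0.743 to 0.944. With each library left out in turn its log2 fold change stayed between -0.31 and -0.23.

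The other relatives of these proteins were looked at in a list of 22 HOXA9 and MEIS1 partners and targets, of which 13 were tested. None was called, 6 were higher and 7 lower, and the list's median was -0.02 on the log2 scale. The smallest p belonged to LMO2, a transcriptional adaptor, with a log2 fold change of -0.17 (adjusted p = 0.217 from the edgeR test), and to STAT5A, a signal transducer, with 0.17 (adjusted p = 0.300). PBX2 was present at 199, 201 and 207.5 CPM in sgCtrl and, without overlap, at 184, 187 and 190.4 CPM in sgCOX4I1 (edgeR adjusted p = 0.419). MEIS2 was at 29.4, 26.3 and 26.8 CPM and at 26.4, 25.3 and 24.9 CPM. PBX2 and MEIS2 were picked after their values were seen, as paralogs of PBX3 and MEIS1.

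FLT3 encodes a receptor tyrosine kinase of blood progenitors, which in Molm13 cells carries an activating internal tandem duplication, and it lies on the minus strand of chromosome 13 from 28003274 to 28100592. Its mRNA was at 222, 204 and 199 CPM in sgCtrl #1, #2 and #3 and at 193, 157 and 184 CPM in sgCOX4I1 #1, #2 and #3. The groups did not overlap, and sgCOX4I1 #2 lay furthest from the controls. The means were 208 ± 12.3 and 178 ± 18.9 CPM (SD, n = 3 each), with a log2 fold change of -0.23 ± 0.086 (edgeR unadjusted p = 0.0200 and adjusted p = 0.190). Without sgCOX4I1 #2 the log2 fold change was -0.14. By a two-sided exact permutation test the difference gave p = 0.1 for FLT3, PBX3 and HOXA5 alike, the smallest p that 3 libraries against 3 allow. Groups without overlap always reach this p, so it adds nothing to the lack of overlap. Over all genes tested, 10.4% had all sgCOX4I1 libraries below all sgCtrl libraries and 11.3% had all above, beside 3 and 0 of the 10 members.

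Sequence upstream of a RefSeq transcription start of PBX3 and FLT3 is shown because these were the pair of members with the smallest p, 250 bases each (GRCh38.p14), 5′ to 3′ on the gene's strand. In GENCODE 44 the PBX3 window begins 588 bases after the first PBX3 start and lies in an intron but for 18 bases of an exon. The FLT3 window lies upstream of the gene but for 16 bases of an exon. Capitals mark matches, on either strand, to a MEIS motif (TGACAG), a composite PBX and HOX motif (TGATTNAT) or a short MYB motif (AACNG), none of which overlapped in these windows.
PBX3, chr9:125747933-125748182, plus strand: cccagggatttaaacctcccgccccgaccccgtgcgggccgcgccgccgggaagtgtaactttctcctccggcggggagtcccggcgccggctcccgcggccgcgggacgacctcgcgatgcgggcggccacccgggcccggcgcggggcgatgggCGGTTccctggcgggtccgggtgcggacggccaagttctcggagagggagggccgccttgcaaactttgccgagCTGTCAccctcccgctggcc
FLT3, chr13:28100577-28100826, minus strand: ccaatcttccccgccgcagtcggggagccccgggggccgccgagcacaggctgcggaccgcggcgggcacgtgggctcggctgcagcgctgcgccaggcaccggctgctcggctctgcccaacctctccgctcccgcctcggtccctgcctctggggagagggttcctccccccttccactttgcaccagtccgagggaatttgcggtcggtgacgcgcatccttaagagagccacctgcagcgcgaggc

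Both windows were rich in G and C, at 75.6% for PBX3 and 72% for FLT3. The PBX3 window held 1 MEIS and 1 MYB match, and the FLT3 window held 0 of either. Over the 17 windows of 9 members matched in RefSeq (all but HOXA5), 4 windows of 2 members, MEF2C and PBX3, held the MEIS motif, and 11 windows of 6 members held the MYB motif. None held the composite motif. Of 35116 windows of all genes, 13%, 70.6% and 2.48% held these motifs, but 7 of the 17 member windows belong to MEF2C alone. Such matches describe letters, not binding.

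Genes around FLT3 were read from a list of 14, its ligand and signalling partners, all of them tested. None was called, 9 were higher and 5 lower, and the list's median was 0.05 on the log2 scale. PIM2, a kinase downstream of STAT5, had a log2 fold change of -0.29 (adjusted p = 0.171 from the edgeR test), and GAB2, a docking protein, one of -0.21 (adjusted p = 0.196). Groups were apart for 5 of these genes, 3 lower and 2 higher, beside 10.4% and 11.3% of all genes tested.

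MEF2C, a transcription factor of the MADS box family that spans 88717117 to 88904257 on chromosome 5 (minus strand), was at 130, 109 and 121 CPM in sgCtrl #1, #2 and #3 and at 119, 110.2 and 109.5 CPM in sgCOX4I1 #1, #2 and #3. All sgCOX4I1 libraries lay within the range of the controls, and the log2 fold change was -0.09 ± 0.080 (edgeR adjusted p = 0.629), or -0.03 without sgCtrl #1 and -0.15 without sgCtrl #2. MYB, a transcription factor that progenitors need to keep dividing, spans 135181308 to 135219173 on chromosome 6 (plus strand) and was the most abundant member, at 378, 351 and 358 CPM in sgCtrl and at 353, 351 and 349 CPM in sgCOX4I1. The 3 sgCOX4I1 values were nearly alike, with a coefficient of variation of 0.576%, and the log2 fold change was -0.05 ± 0.071 (edgeR adjusted p = 0.784), or -0.02 without sgCtrl #1.

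Among 17 relatives and regulators of MEF2 and MYB, 15 were tested, 4 were higher and 11 lower. Of these, 1 was called, where 2.08% of all genes tested were. The list's median was -0.11 on the log2 scale. HDAC7, a class IIa histone deacetylase of the kind that binds MEF2 proteins and represses their targets, was at 67.6, 73.1 and 80.4 CPM in sgCtrl and at 52.4, 57.0 and 56.8 CPM in sgCOX4I1. Every sgCOX4I1 library lay below every control. On the log2 scale HDAC7 fell by 0.41 ± 0.084 (edgeR adjusted p = 0.0257). The call was lost when any 1 library other than sgCtrl #1 was left out, with adjusted p-values of 0.06 to 0.156, while the log2 fold change stayed between -0.47 and -0.34 in all 12 alternatives.

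CDK6, the cyclin D-dependent kinase that phosphorylates the retinoblastoma protein, spans 92604921 to 92836573 on chromosome 7 (minus strand), far from the HOXA genes. It was the only member with a higher mean, at 219, 207 and 208 CPM in sgCtrl #1, #2 and #3 and at 227, 213 and 220 CPM in sgCOX4I1 #1, #2 and #3. The groups overlapped, and the log2 fold change was 0.06 ± 0.070 (edgeR adjusted p = 0.722). Of 19 genes of its cyclins, inhibitors and substrates, 17 were tested, 7 higher and 10 lower, and the list's median was -0.08 on the log2 scale. CDKN2A and CDKN2B, which encode inhibitors of CDK6, had 0 counts in all 6 libraries. E2F1, the transcription factor released when the retinoblastoma protein is phosphorylated, was the 1 gene called, where 2.08% of all genes tested were. It was at 44.5, 49.6 and 46.2 CPM in sgCtrl and at 37.1, 34.9 and 37.7 CPM in sgCOX4I1. On the log2 scale E2F1 fell by 0.35 ± 0.083 (edgeR adjusted p = 0.0437), and the groups did not overlap. This call too was lost without any 1 library other than sgCtrl #1 (adjusted p = 0.0646 to 0.253) and without TMM scaling (0.0577), with log2 fold changes between -0.39 and -0.31.

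**Figure D3:**
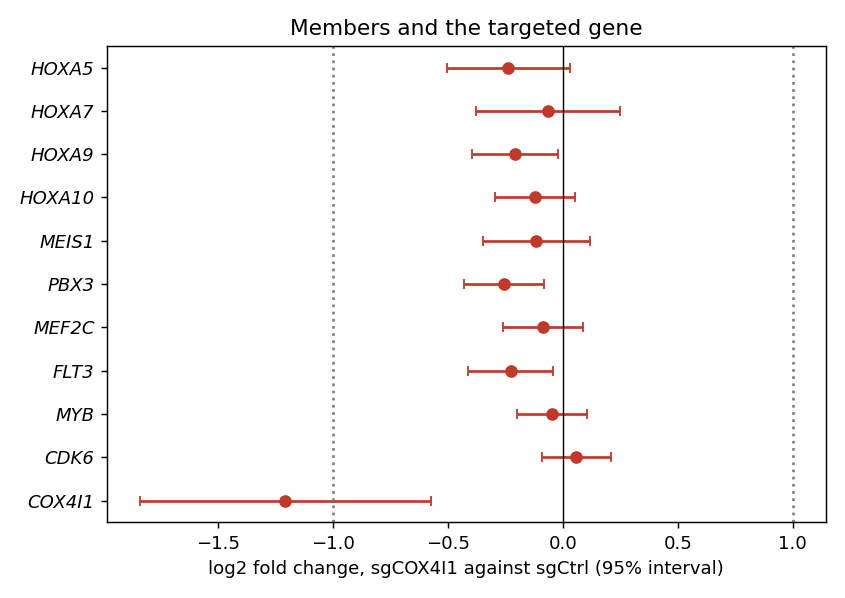
Points are log2 fold changes of sgCOX4I1 against sgCtrl for the 10 members and for COX4I1, with 95% intervals from the edgeR fit, and dotted lines mark a change of 2-fold in either direction. The intervals of the members lie between -0.51 and 0.25, inside the dotted lines, and that of COX4I1 between -1.84 and -0.57.

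The precision of these values can be read from the intervals. Standard errors of the members ran from 0.070 for CDK6 to 0.15 for HOXA7 on the log2 scale, with a median of 0.10 over all genes tested. The 95% intervals of the fold changes together spanned 0.704 to 1.19, so that a change of 2-fold lay outside the interval of each member. Intervals of HOXA9, PBX3 and FLT3 did not include a fold of 1 before adjustment for the number of genes, and those of the other 7 did.

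The 3 sgCOX4I1 libraries differed in their member levels, and their order was not that of the COX4I1 mRNA. The mRNA is not a measure of the protein lost, which the paper followed by Western blot with 3 independent guides per group. Whether member levels follow the loss of the protein was not tested. In sgCOX4I1 #1 and #3, which kept nearly the same share of COX4I1 mRNA, HOXA9 was at 97.5% and 80.5% of the sgCtrl mean, and MEIS1 at 109% and 85.9%. In sgCOX4I1 #2, which kept 76.7% of COX4I1 mRNA, FLT3 was at 75.2%, its lowest value, PBX3 at 80.2% and MEIS1 at 82.0%, while HOXA7 was at 117%. The median of the members' log2 differences from the sgCtrl mean was -0.06, -0.20 and -0.23 in sgCOX4I1 #1, #2 and #3. Controls differed as well, since sgCtrl #1 was the highest control for 9 of the 10 members. Its median difference was 0.06, beside -0.02 and -0.06 in sgCtrl #2 and #3. The medians thus fell from #1 to #3 in both groups, and whether libraries of the same number share a difference was not tested. In all 3 sgCOX4I1 libraries, 7 members lay below their sgCtrl mean and 1, CDK6, above it.

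**Figure D4:**
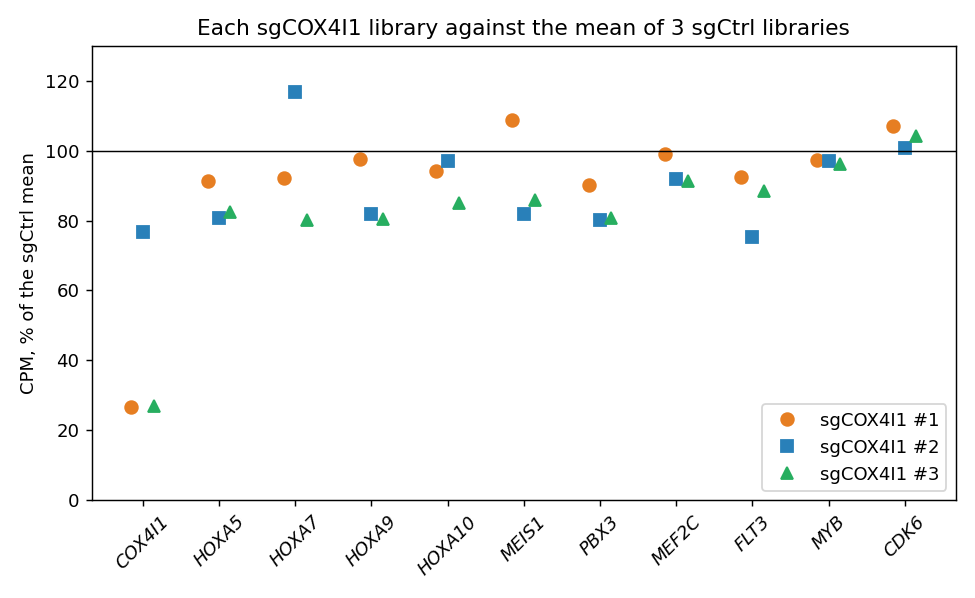
The level of COX4I1 and of the 10 members in each sgCOX4I1 library is drawn as a percent of the mean of the 3 sgCtrl libraries, with 1 symbol and colour per library and a line at 100%. COX4I1 is near 27% in #1 and #3 and at 76.7% in #2, whereas the members lie between 75.2% for FLT3 and 117% for HOXA7, both in #2.

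Levels of different genes were compared per kilobase of exon (FPKM, with exon lengths from GENCODE 44, which may not be the annotation of the deposited counts). In sgCtrl libraries the order of the levels was MYB at 65.9 ± 2.53, FLT3 at 50.1 ± 2.95, HOXA10 at 29.0 ± 1.87, HOXA9 at 21.1 ± 0.703, PBX3 at 18.7 ± 1.20, CDK6 at 17.3 ± 0.557, MEF2C at 10.2 ± 0.879, HOXA5 at 7.32 ± 0.524, HOXA7 at 5.88 ± 0.503 and MEIS1 at 3.72 ± 0.235 FPKM (SD, n = 3 each). PBX3 and CDK6 were the only neighbours in this order whose 3 libraries overlapped. MEIS1, although a defining gene of the program, was the lowest per kilobase, over 10942 exonic bases of all its annotated isoforms.

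The machinery that the fusion works through was read from a list of 25 genes, all tested. None was called, 8 were higher and 17 lower, and the list's median was -0.04 on the log2 scale. DOT1L, the histone methyltransferase, came closest, at 301.5, 352 and 361 CPM in sgCtrl #1, #2 and #3 and at 237, 273 and 277 CPM in sgCOX4I1 #1, #2 and #3. DOT1L shares 4.605% of its exonic bases with PLEKHJ1 in GENCODE 44. Its groups did not overlap, and its log2 fold change was -0.37 ± 0.089 (edgeR adjusted p = 0.0512), and it passed with DESeq2 (0.0064), with limma-voom (0.0494), without the count filter (0.0114) and without sgCtrl #1 (0.00841). Over the alternatives its adjusted p ran from 0.000358 to 0.277. MLLT3, the fusion partner, was at 15.8, 15.8 and 15.7 CPM in sgCtrl and at 12.7, 12.3 and 12.6 CPM in sgCOX4I1, a log2 fold change of -0.33 ± 0.11 (edgeR adjusted p = 0.141). Reads of the fusion transcript and of the normal allele cannot be told apart in counts per gene. KMT2A, which was singled out after its values were seen because it is the other part of the fusion, had 42.8 ± 2.08 and 42.1 ± 3.70 CPM (SD, n = 3 each), or a log2 difference of -0.02 ± 0.089 (edgeR adjusted p = 0.935).

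A further list of 27 other MLL fusion targets held 23 tested genes, of which 5 were higher and 18 lower, and none was called. The list's median was -0.11 on the log2 scale. The groups did not overlap for 8 genes that were lower and 2 that were higher, beside 10.4% and 11.3% of all genes tested. Beside HOXA3, the smallest p belonged to MYC, a driver of growth, which was at 484 ± 56.8 CPM in sgCtrl and 584 ± 20.7 CPM in sgCOX4I1 (SD, n = 3 each), or a log2 difference of 0.27 (adjusted p = 0.139 from the edgeR test). Without sgCtrl #1 MYC passed, at 0.35 (adjusted p = 0.0325).

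Loss of HOXA9, MEIS1 or MYB is known to let myeloid cells mature, so maturation genes were read beside the members. Of a list of 28 genes, 25 were tested, 17 higher and 8 lower, and the list's median was 0.28 on the log2 scale. The list also holds MPO, ELANE, AZU1, PRTN3 and CTSG, granule genes of early myeloid cells. Its counts and median therefore mix early with late genes and give no direction of maturation. S100A8 and S100A9, which encode calcium-binding proteins of monocytes and neutrophils, rose by 0.81 and 0.75 on the log2 scale (adjusted p = 0.00115 and 0.00154 from the edgeR test), and CEBPB, a transcription factor of monocytes and macrophages, rose by 0.63 (adjusted p = 0.0259). The CEBPB call was lost without sgCtrl #2 (adjusted p = 0.22), sgCOX4I1 #2 (0.116) or sgCOX4I1 #3 (0.0522). MPO, the peroxidase of granules made in early myeloid cells, fell by 1.06 (adjusted p = 1.6e-05). The other 21 tested genes did not pass the threshold, among them further granule genes, chosen here after their values were seen. ELANE, PRTN3 and CTSG, which encode serine proteases of the granules, had log2 fold changes of 0.28, 0.29 and 0.34 (edgeR adjusted p = 0.255, 0.124 and 0.112), opposite in sign to MPO. AZU1, their relative, was at -0.32 (edgeR adjusted p = 0.149). CEBPE, a transcription factor of late granulocytes, was at -1.01 (edgeR adjusted p = 0.154). S100A12, a relative of S100A8, was too low to be tested, at 0.419 ± 0.0342 CPM in sgCtrl and 0.200 ± 0.0582 CPM in sgCOX4I1 (SD, n = 3 each). Of all genes tested, 2.08% were called. The 4 calls of this list were known from earlier results of these data, and whether they are tied to the members was not tested.

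**Figure D5:**
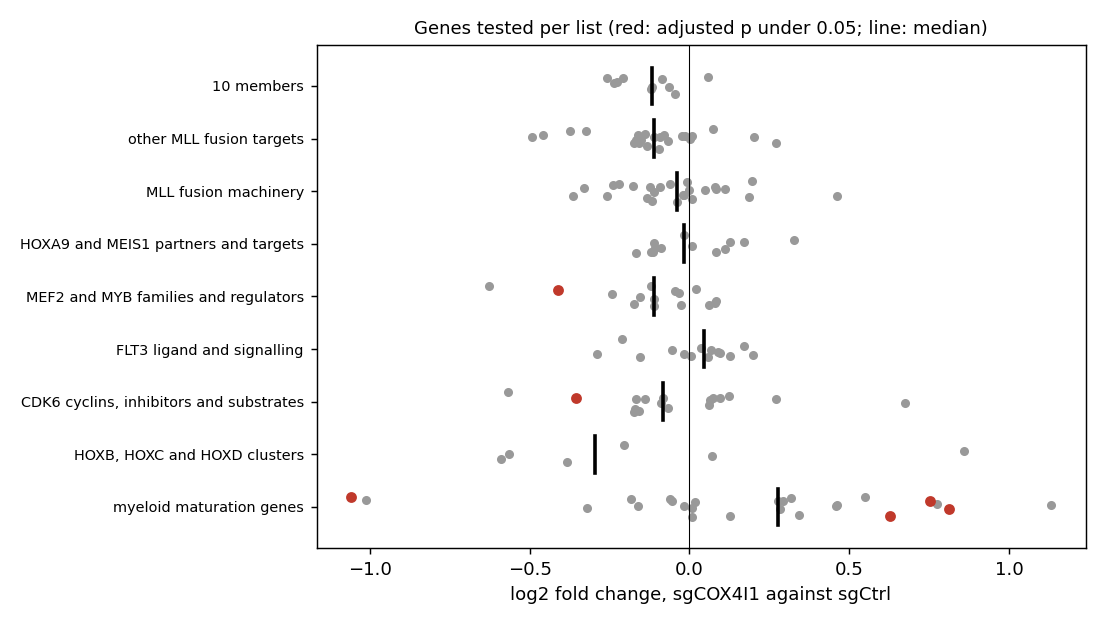
Each point is the log2 fold change of 1 tested gene of a list, red where the adjusted p from the edgeR test was under 0.05, with a black line at the median of the list and random vertical spread. HDAC7, E2F1 and 4 genes of the maturation list, the early granule gene MPO among them, are red, and no member is.

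For HOXA9 and MEIS1, genes of at least 1 CPM were ordered by how closely their log2 CPM, centred on the mean of the 6 libraries, followed that of the member. Nearest to HOXA9 were CEP55, SLC41A3 and TRIM13, with root mean square differences of 0.028, 0.029 and 0.033 on the log2 scale. Nearest to MEIS1 were CLNS1A, MRPL39 and NEMP2, with 0.035, 0.048 and 0.048. With 11324 genes compared over 6 libraries, this is a description of these libraries alone. No other member was among the nearest genes.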

How the data were processed

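RNA was sequenced from 6 Molm13-Cas9 cultures, 3 sgCtrl and 3 sgCOX4I1. The authors deposited whole-number counts per gene symbol without normalization. The methods name Trimmomatic, Bowtie2 and RSEM, while the submitters' processing notes name STAR 2.6.0a and the deposited column names point to STAR and HTSeq. Columns were matched by letter and number (C for sgCtrl, K for sgCOX4I1). Whether counting used strand was not given in the sources used here.

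Counts were analysed in R 4.3.3 with edgeR 4.0.16 (TMM, its expression filter, quasi-likelihood test without covariates, Benjamini-Hochberg adjustment over 11861 genes). Log2 values per library used a prior count of 2. DESeq2 1.42.0, limma-voom (limma 3.58.1), other filters and scalings, a replicate block and leaving out each library were alternatives. The edgeR, DESeq2 and limma fits were tested on simulated data with planted changes far larger than that of any member. This does not show how well they find changes of the members' size. Replicates differed by more than sampling noise (chi-square over degrees of freedom, 11 to 27.5). Positions and exon lengths were those of GENCODE 44 (GRCh38), where 18437 of 19845 symbols were found, and upstream sequences from RefSeq.

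The members and lists were chosen with earlier results of these data known. Named genes were the members, COX4I1, up to 5 called genes per list by adjusted p or else the 2 with the smallest p, and the 3 genes nearest to HOXA9 and to MEIS1. P-values measure the spread between these cultures and their guides together, and intervals for 0 counts cover counting error only. Some listed genes are not reported here.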

Additional observations from a re-analysis of the deposited data

How the results depend on the processing

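Across 12 alternatives, 116 of 120 log2 fold changes of members kept their direction and their side of the threshold. HOXA7 ranged from -0.2165 to 0.06036 with 1 library left out, above 0 without sgCOX4I1 #3. Of 228 values of 19 other named genes, 196 stayed on their side, 14 calls were lost, 16 were gained, and 2 turned, both of KMT2A, which ranged from -0.0917 to 0.03543 with 1 library left out. Members called stayed at 0 in all alternatives except the fit with the replicate number as a block, where 3 were called, HOXA9 (adjusted p = 0.0477), PBX3 (0.0108) and FLT3 (0.0203) by edgeR's quasi-likelihood test, while the same block called 1408 genes in all, or 11.9%. The block also gained DOT1L, HOXA3, HOXC10, HOXC4, GAB2 and MYC, whose adjusted p-values ran from 0.000358 (DOT1L) to 0.0361 (HOXC4). Same-numbered libraries correlated at 0.382, -0.024 and 0.294 in their deviations from the group means. For sgCOX4I1 #1 and #3 the same-numbered control correlated best, whereas sgCOX4I1 #2 correlated best with sgCtrl #3, at 0.13. Whether libraries of the same number were handled together was not given in the sources used here and was not tested. COX4I1 passed the threshold with no count filter (log2 fold change -1.205), with limma-voom (-1.40) and with the replicate block (-1.39), and leaving out 1 library gave -1.895 to -0.954. It also passed without sgCtrl #1 (adjusted p = 0.0193), sgCtrl #3 (0.0372) or sgCOX4I1 #2 (3.37e-06), and not with DESeq2 (0.234). All genes called numbered 466 with DESeq2 and 537 with no count filter. With each library left out they ran from 24 (without sgCtrl #2) to 561 (without sgCtrl #1), with 51 without sgCOX4I1 #2 and 89 without sgCOX4I1 #3. With the fold threshold they numbered 41 with no count filter and 57 with the replicate block, and 9 to 50 with 1 library left out. Members with a higher mean numbered 1 to 2, and members whose groups did not overlap 3 to 6, with 1 library left out. Smaller groups separate more easily, and the share of all genes without overlap was not computed for these settings. The range of 3 to 6 therefore has no background to be read against. Why the values in this section moved was not tested. At 175 counts, the lowest of any member, counting error is 7.56% (HOXA5).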
